A study of Mus musculus with 6 samples.

Results

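The fibroblast growth factor (FGF) signalling and ERK feedback genes described here are Fgf4, the receptor genes Fgfr1 and Fgfr2, the phosphatase genes Dusp4 and Dusp6, the inhibitor genes Spry2, Spry4 and Spred1, and the ETS factor genes Etv4 and Etv5. They were chosen by symbol, and all 10 were found once each among the 22933 Ensembl genes of the deposited table. Total RNA, depleted of ribosomal RNA, came from mouse embryonic stem cells with floxed Ezh2 alleles (Ezh2 fl/fl). The tamoxifen group (3 libraries) had been given 4-hydroxytamoxifen at 800 nM for 96 h and was collected on day 4, and its labels call it an Ezh2 knockout. The untreated group (3 libraries) was the same Ezh2 fl/fl line with no tamoxifen, collected on day 0 and labelled wild type. Both groups grew on gelatin in serum, knockout serum replacement and leukaemia inhibitory factor. The labels name neither the recombinase that the drug acts on nor whether replicates came from separate cultures. No group without floxed alleles received the drug, and no untreated group was collected on day 4. Effects of the drug itself, of the days in culture and of Ezh2 loss therefore cannot be told apart. The question of the comparison is how RNA levels differ once tamoxifen has been given to remove Ezh2, the catalytic subunit of Polycomb repressive complex 2.

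FGF4 is secreted by embryonic stem cells and by the early epiblast, and acts through FGF receptors on the RAS, RAF, MEK and ERK kinase chain. In the mouse blastocyst this signal favours primitive endoderm over epiblast, and in cultured stem cells it prepares the exit from naive pluripotency. Active ERK induces genes that shut the chain down again, among them the ERK phosphatases of the DUSP family and the Sprouty and Spred proteins, and it induces the ETS factors Etv4 and Etv5. The levels of these induced genes are widely used as readouts of the pathway.

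Values are normalized counts per gene. The recovered reads came to between 2334438 and 5110226 in the 3 tamoxifen libraries and to between 2678202 and 5689666 in the 3 untreated libraries. Ezh2 averaged 2475 ± 190 in tamoxifen and 3756 ± 361 in untreated libraries (SD, n = 3 each) and was not called (limma adjusted p 0.195), so the groups are named here by treatment. All 10 stem cell markers on the list were detected in every library, and they summed to between 65446 and 71390 in tamoxifen libraries and between 56366 and 77944 in untreated libraries.

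The limma fit covered 17427 genes, and with a threshold of 0.05 on p-values adjusted by Benjamini-Hochberg it called 0 of the 10 members, against 0.195% of all genes (0.126% higher and 0.0689% lower). At an unadjusted p under 0.05 there were 2 members (20%), Fgfr2 (higher) and Spred1 (lower), against 9.34% of all genes (5.34% higher and 3.99% lower). Spred1 was also the 1 member (10%) whose groups did not overlap, in the lower direction, against 15.3% of all genes (7.92% higher and 7.33% lower). With 10 members, a difference of 1 gene moves these shares by 10%. The median log2 fold change (tamoxifen minus untreated, on values plus 1) of the 10 was 0.049, against -0.0037 over all genes tested, with 6 higher and 4 lower. All 10 passed the filter on low values and had at least 19 recovered reads in every library. An exact permutation test of 3 against 3 libraries cannot give a p below 0.1, and among the members that value was reached by Spred1 alone.

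**Figure D1:**
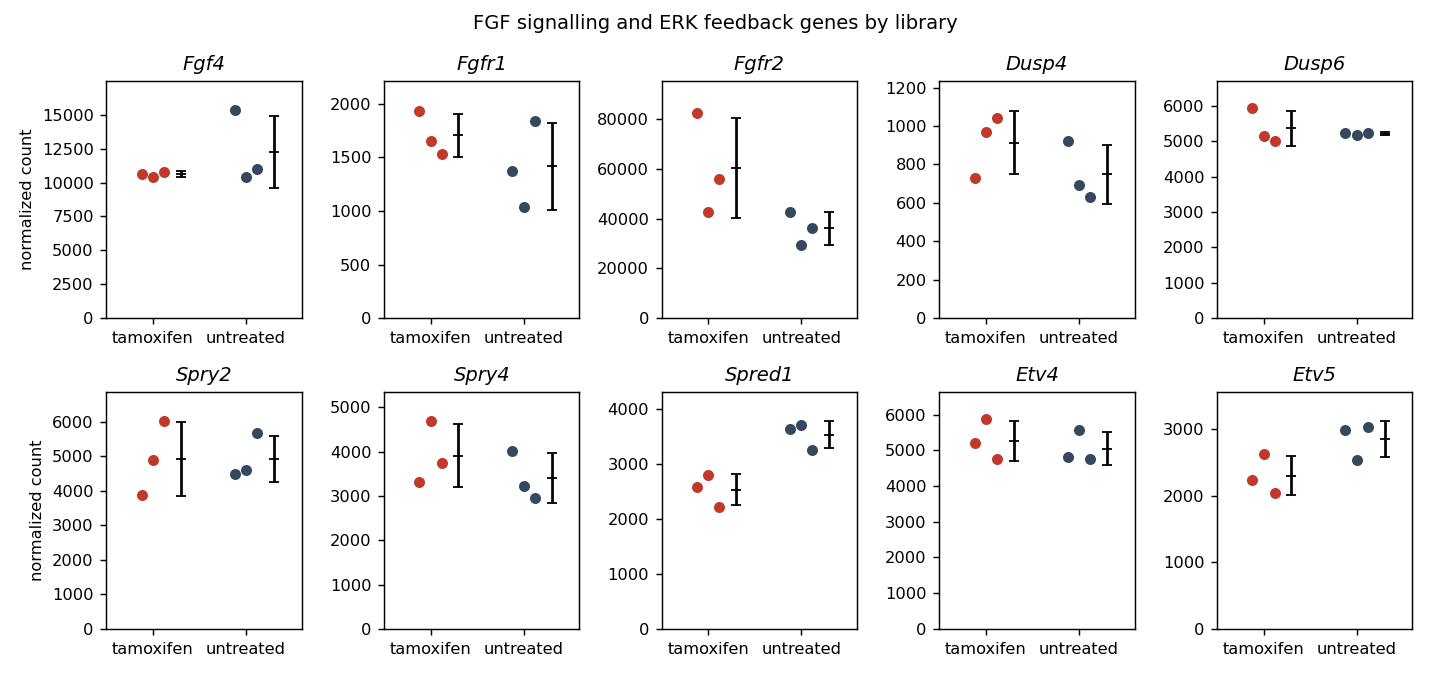
Normalized counts of the 10 genes in each library, from 0 on a linear axis, with tamoxifen libraries left and untreated libraries right; points are libraries in the order of their replicate numbers and bars give mean and SD (n = 3). Only for Spred1 do the groups separate, with 2229 to 2803 in tamoxifen and 3269 to 3718 in untreated libraries.

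Fgf4, the ligand (ENSMUSG00000050917, chromosome 7, 144847367 to 144865243 on the plus strand of GRCm38), was not called, and its tamoxifen libraries lay close to 2 of the 3 untreated ones. It had 10645, 10411 and 10802 normalized counts in tamoxifen replicates 1 to 3, against 15317, 10413 and 11014 in untreated replicates 1 to 3, on 427 to 1198 reads. The 3 tamoxifen libraries lay within a narrow band, and untreated replicate 1 stood above all others. Its log2 fold change was -0.18 ± 0.17 (SE) with a 95% interval from -0.58 to 0.22 (limma adjusted p 0.766), and it was -0.012 without untreated replicate 1. On recovered reads with median-of-ratios scaling it was -0.49 (unadjusted limma p 0.0294, adjusted p 0.517).

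To show what lies in front of the ligand gene, of the feedback gene with the narrowest interval and of the one gene whose groups separated, the 250 bases before the RefSeq start of Fgf4 (chr7:144861136-144861385, plus strand), Dusp6 (chr10:99262981-99263230, plus strand) and Spred1 (chr2:117120821-117121070, plus strand) on GRCm38.p6 are printed 5′ to 3′. The Fgf4 window lies inside the longer gene that GENCODE gives, which starts at 144847367. Bases after the RefSeq start were matched to a GENCODE transcript for Fgf4 and Dusp6 but not for Spred1. Capitals mark GGAA, the core that ETS factors bind, or TTCC, the same core on the other strand.
Fgf4: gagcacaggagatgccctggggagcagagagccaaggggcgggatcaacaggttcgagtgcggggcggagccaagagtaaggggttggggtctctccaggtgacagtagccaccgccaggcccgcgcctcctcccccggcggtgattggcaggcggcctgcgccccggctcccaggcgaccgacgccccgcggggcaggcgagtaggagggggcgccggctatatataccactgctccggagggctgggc
Dusp6: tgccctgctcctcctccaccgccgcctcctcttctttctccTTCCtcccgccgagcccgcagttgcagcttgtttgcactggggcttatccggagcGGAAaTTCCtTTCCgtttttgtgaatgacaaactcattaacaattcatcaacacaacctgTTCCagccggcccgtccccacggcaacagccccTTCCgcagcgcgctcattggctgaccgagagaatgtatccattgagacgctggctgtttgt
Spred1: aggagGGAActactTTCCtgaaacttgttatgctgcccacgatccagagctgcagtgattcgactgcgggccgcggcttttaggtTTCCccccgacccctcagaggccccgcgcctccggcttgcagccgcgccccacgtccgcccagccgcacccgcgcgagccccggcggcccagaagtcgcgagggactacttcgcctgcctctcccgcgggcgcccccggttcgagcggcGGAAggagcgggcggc

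The core was counted 6 times in the Dusp6 window, 4 times in the Spred1 window and 0 times in the Fgf4 window. It is a short motif, and 93.4% of 32851 RefSeq promoter windows of this length hold it on at least 1 strand. The longer ETS sequence CCGGAA, which contains that core, was in 12% of windows, the AP-1 sequence TGANTCA in 6.75% and the cyclic AMP response element TGACGTCA in 1.55%, each on both strands. None of the 3 was found in the windows of the 6 members searched (Fgf4, Fgfr2, Dusp6, Spry2, Spred1 and Etv5). Spry4 was left out of the search, and no window was at hand for Fgfr1, Dusp4 and Etv4. These are letter matches in the chosen windows and no measure of binding.

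Fgfr1 (ENSMUSG00000031565, chromosome 8, 25513654 to 25575718, plus strand of GRCm38) encodes the FGF receptor that mouse embryonic stem cells are known to use most. It had 1927, 1654 and 1528 normalized counts in the tamoxifen libraries, against 1372, 1032 and 1839 in the untreated libraries, on 112 to 299 reads. The groups overlapped through untreated replicate 3, which was second highest of the 6. On the log2 scale the difference was 0.30 ± 0.23 (SE), with a 95% interval from -0.25 to 0.85 (limma adjusted p 0.743). Scaled to the total of recovered reads in each library (CPM), the gene stood at 49.6, 59.1 and 58.5 in tamoxifen libraries and at 44.1, 35.3 and 41.8 in untreated libraries, which do not overlap. That scale moved the median of all genes by 0.24, and the log2 fold change of Fgfr1 on it was 0.46 (limma adjusted p 0.941). An antisense gene, Gm16159, lies inside the annotated Fgfr1 gene and was not analysed here.

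Fgfr2 (ENSMUSG00000030849) encodes the second receptor, known in the blastocyst for its expression in primitive endoderm precursors. Its row was the most abundant of the 10, with 82368, 42799 and 55879 normalized counts in tamoxifen libraries against 42800, 29448 and 36124 in untreated libraries. The lowest tamoxifen library and the highest untreated library were equal to within 1 normalized count, and tamoxifen replicate 1 stood far above the rest. That gave a log2 fold change of 0.70 ± 0.28 (SE), with a 95% interval from 0.019 to 1.39 (unadjusted limma p 0.0456, adjusted p 0.529). It was 0.45 without tamoxifen replicate 1. On recovered reads, which numbered 5200 to 14876, it was 0.16 as CPM and -0.11 with median-of-ratios scaling.

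The annotations differ in how far this gene reaches. In GENCODE vM21 the identifier spans 2.96 megabases of chromosome 7 on the minus strand (130162451 to 133123350), while RefSeq gives Fgfr2 104.4 kilobases (130162451 to 130266808). The annotation used for the deposited counts is not given in the sources used here. Inside the long span the table lists 29 other protein-coding genes, and none of them averaged 10 reads. Their highest count in any library was 5, reached by Bub3, a mitotic checkpoint gene. On the minus strand, shared with Fgfr2, 9 of 13 had 0 reads in every library, among them Oat, which encodes ornithine aminotransferase. The 16 on the plus strand together had 12 to 18 reads per library.

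Of the nearest 29 protein-coding genes on both sides of the span, 13 averaged at least 10 reads, with up to 386 for Dhx32. Those flanking genes summed to 1065 to 3538 reads per library, against 13 to 21 for the genes inside. Few reads for genes that lie inside another gene were a general feature of the table. Of 128 protein-coding genes wholly inside a protein-coding gene of the same strand 15.6% averaged at least 10 reads, and of 360 inside one of the other strand only 8.06%, against 59.1% of 19059 inside none. The nested genes counted here include the 29 inside the Fgfr2 span, so these shares are not independent of them. Which of the reads in the Fgfr2 row come from the receptor gene cannot be told apart in these values, and its level and change are therefore not read as those of Fgfr2 RNA. Without that row the median log2 fold change of the other 9 members was 0.038, with 5 higher and 4 lower.

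**Figure D2:**
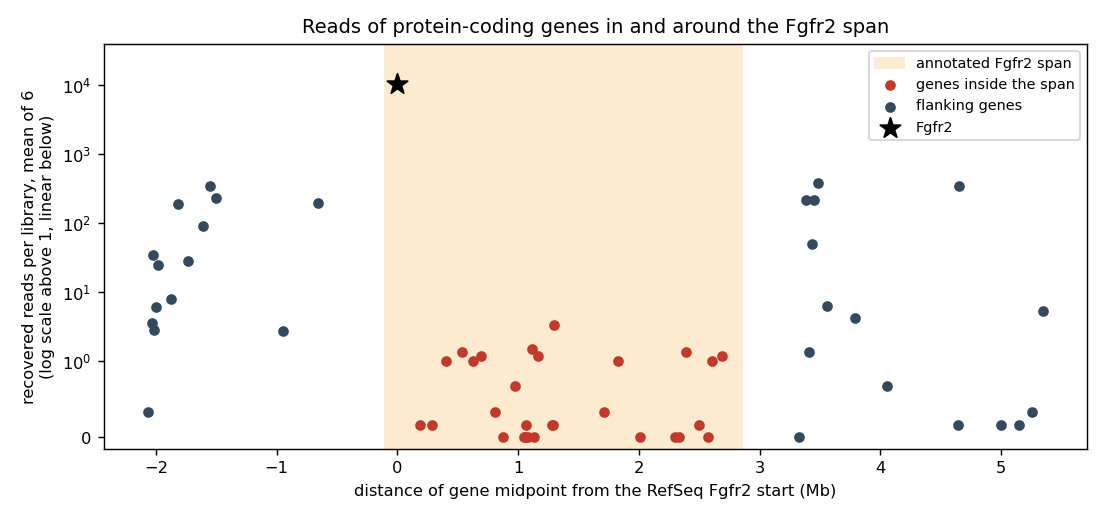
Mean recovered reads per library (6 libraries; logarithmic above 1, linear below) of protein-coding genes against the distance of their midpoint from the RefSeq start of Fgfr2 in megabases; the shaded area is the GENCODE span of Fgfr2. The 29 genes inside stay under 4 reads on average, Fgfr2 itself is at 10614, and 13 of 29 flanking genes reach 10 or more.

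Dusp6 and Dusp4 encode dual-specificity phosphatases that inactivate ERK, DUSP6 in the cytoplasm and DUSP4 in the nucleus. Dusp6 (ENSMUSG00000019960, chromosome 10, 99263231 to 99267489, plus strand of GRCm38) was the most even of the members. It had 5936, 5166 and 5002 normalized counts in tamoxifen libraries, against 5235, 5168 and 5243 in untreated libraries, on 177 to 613 reads. The untreated libraries were almost identical and lay inside the range of the tamoxifen libraries. For Dusp6 the log2 fold change was 0.038 ± 0.10 (SE), and its 95% interval from -0.21 to 0.29 corresponds to a tamoxifen level between 86.5% and 122% of the untreated level (limma adjusted p 0.925).

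Dusp4 (ENSMUSG00000031530, chromosome 8, 34807297 to 34819894, plus strand of GRCm38) was the least counted of the members, with 19 to 95 reads per library. It had 729, 971 and 1041 normalized counts in tamoxifen libraries and 924, 691 and 630 in untreated libraries. Tamoxifen replicate 1 lay among the untreated libraries and the groups overlapped. Its log2 fold change was 0.29 ± 0.21 (SE), with a 95% interval from -0.23 to 0.81 (limma adjusted p 0.737).

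Spry2 and Spry4 encode Sprouty proteins, which block the chain between receptor and RAF. Spry2 (ENSMUSG00000022114, chromosome 14, 105891947 to 105896819, minus strand of GRCm38) had 3872, 4884 and 6024 normalized counts in tamoxifen libraries, against 4476, 4593 and 5681 in untreated libraries. Tamoxifen libraries held both the highest and the lowest of the 6 values, and the group means, 4926 ± 1077 and 4917 ± 665 (SD, n = 3 each), were nearly equal. For Spry2 the log2 fold change was -0.012 ± 0.19 (SE) with a 95% interval from -0.47 to 0.45 (limma adjusted p 1), so changes within that interval in either direction are not excluded.

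Spry4 (ENSMUSG00000024427, chromosome 18, 38586247 to 38601415, minus strand of GRCm38) had 3308, 4690 and 3737 normalized counts in tamoxifen libraries and 4028, 3231 and 2957 in untreated libraries. The groups overlapped, with tamoxifen replicate 2 highest and untreated replicate 3 lowest. On the log2 scale Spry4 differed by 0.20 ± 0.18 (SE), with a 95% interval from -0.24 to 0.63 (limma adjusted p 0.766).

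Spred1 (ENSMUSG00000027351, chromosome 2, 117121374 to 117182279, plus strand of GRCm38) encodes a membrane-bound inhibitor that recruits the RAS GTPase-activating protein neurofibromin. It was lower in every tamoxifen library than in any untreated library, with 2589, 2803 and 2229 normalized counts in tamoxifen libraries against 3640, 3718 and 3269 in untreated libraries. Mean Spred1 was 2540 ± 290 in tamoxifen and 3542 ± 240 in untreated libraries (SD, n = 3 each), so the tamoxifen mean was 71.7% of the untreated mean. Its log2 fold change was -0.48 ± 0.12 (SE), with a 95% interval from -0.78 to -0.19. The unadjusted limma p was 0.0069, and after adjustment over all genes limma gave 0.312. With 1 library left out it stayed between -0.56 and -0.39.

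The separation was present on the deposited scale and absent on another. As CPM of recovered reads Spred1 stood at 75.1, 133.6 and 93.5 in tamoxifen libraries and at 171.5, 90.2 and 57.9 in untreated libraries, where untreated replicates 1 and 3 were the highest and the lowest of all 6. The log2 fold change was 0.022 on that scale, on which the median of all genes was 0.24, and -0.25 with median-of-ratios scaling (limma adjusted p 0.782). The deposited values gave a read of Spred1 21.1 normalized counts in untreated replicate 3, against 4.66 to 8.98 in the other libraries, and that library had the highest value per read for every member except Fgfr2.

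Etv4 and Etv5 encode ETS transcription factors of the PEA3 family, which FGF signals induce in many tissues. Etv4 (ENSMUSG00000017724, chromosome 11, 101769742 to 101785371, minus strand of GRCm38) had 5196, 5867 and 4749 normalized counts in tamoxifen libraries, against 4816, 5576 and 4747 in untreated libraries. The groups covered nearly the same range. For Etv4 the log2 fold change was 0.061 ± 0.12 (SE), with a 95% interval from -0.24 to 0.36 (limma adjusted p 0.885).

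Etv5 (ENSMUSG00000013089, chromosome 16, 22381309 to 22439719, minus strand of GRCm38) had 2238, 2618 and 2044 normalized counts in tamoxifen libraries and 2978, 2540 and 3036 in untreated libraries. Tamoxifen replicate 2 stood just above untreated replicate 2, and otherwise the tamoxifen libraries were lower. For Etv5 the log2 fold change was -0.31 ± 0.14 (SE), with a 95% interval from -0.64 to 0.014 (limma adjusted p 0.537). It was below 0 in each of 15 alternative fits, between -0.41 and -0.098, and called in none. Other filters, no trend and a replicate block cannot change this estimate, so only the remaining fits bear on its sign.

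**Figure D3:**
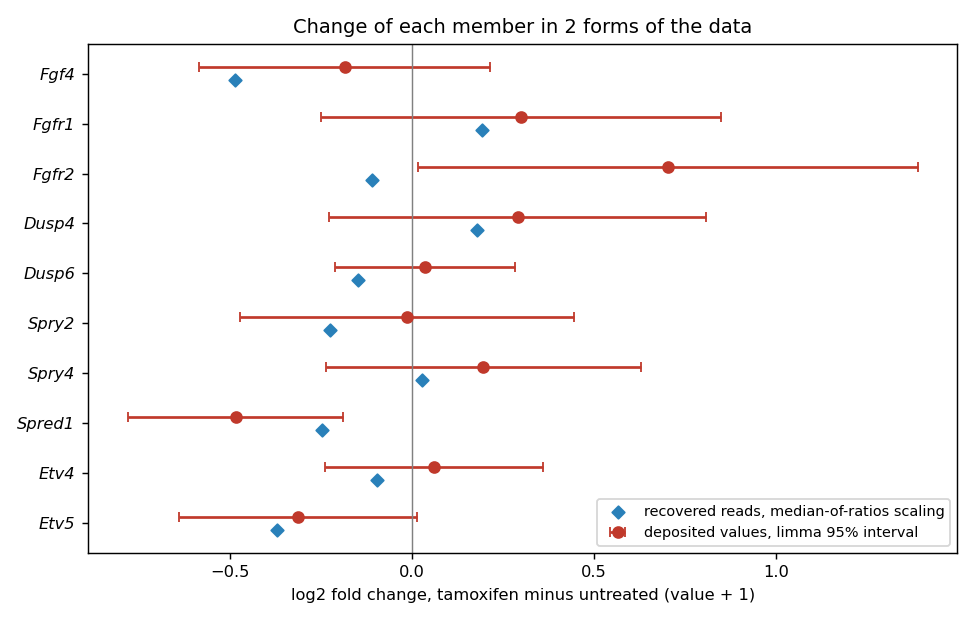
Log2 fold change, tamoxifen minus untreated, of the 10 genes: circles with 95% intervals are from deposited values, diamonds from recovered reads with median-of-ratios scaling. The intervals of 8 genes include 0, those of Fgfr2 (0.019 to 1.39) and Spred1 (-0.78 to -0.19) do not, and the Fgfr2 estimate from reads is -0.11.

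Levels were compared between genes as recovered reads per kilobase of GENCODE exon scaled to the library total (RPKM), leaving out Fgfr2. If introns were counted too, which is not stated, this scale overstates genes with long introns. Fgf4 was highest at 54.9 ± 7.45 in tamoxifen and 64.4 ± 13.8 in untreated libraries (SD, n = 3 each). Spry2, Dusp6 and Etv4 followed, at 36.3, 32.3 and 31.3 in tamoxifen and 33.6, 30.5 and 28.5 in untreated libraries. Etv5, Spry4 and Spred1 stood at 21.3, 17.8 and 14.9 in tamoxifen and at 22.9, 14.4 and 15.7 in untreated libraries. Fgfr1 and Dusp4 were lowest, at 5.65 and 5.31 in tamoxifen and 4.09 and 3.86 in untreated libraries. Over the 6 libraries each gene's range overlapped that of its neighbour in this order, except between Spred1 (8.53 at its lowest) and Fgfr1 (5.99 at its highest).

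The mean profile of the 7 ERK-induced genes (Dusp4, Dusp6, Spry2, Spry4, Spred1, Etv4 and Etv5), each centred on its own mean log2 value, ran between -0.12 in tamoxifen replicate 1 and 0.10 in tamoxifen replicate 2. The untreated libraries lay between those. Of 11833 other genes with at least 10 reads on average, those with the smallest root-mean-square difference from this profile over the 6 libraries were Ppia (0.028 log2 units), Gm10709 (0.029), Hint1 (0.032), Zfp654 (0.034) and Zfyve1 (0.036), against a median of 0.27.

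The remaining pathway genes were read from a list arranged by role. Of its 84 symbols 83 matched the table (Spry3 did not), 75 passed the filter on low values and 63 averaged at least 10 reads. limma called 1 of 75, in the lower direction, or 1.33%, against 0.195% of all genes. That call became 0 over genes with at least 10 reads on average, on either scaling of recovered reads and with a replicate block. At an unadjusted p under 0.05 there were 7 higher and 2 lower, or 12% against 9.34% of all genes. Groups did not overlap for 11 higher and 5 lower genes, or 21.3% against 15.3%. The median log2 fold change of the 75 was 0.075, against -0.0037 over all genes.

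Among the other ligands, the called gene was Fgf21, which encodes a metabolic hormone. It had 0 reads in each tamoxifen library, against 4, 4 and 1 reads in the untreated libraries, which makes it at least 2.77-fold lower with a floor of 3 counts over the tamoxifen group. It passed the filter on low values only through the untreated libraries, and the reads above 0 carry counting error that this bound leaves out. Fgf3 had 697, 646 and 621 normalized counts in tamoxifen libraries, against 453, 504 and 547 in untreated libraries, on 6 to 23 reads (log2 fold change 0.39, limma adjusted p 0.516). Fgf5, which marks the formative epiblast, averaged 2.67 reads. Fgf2, named after its values were seen, had 486 reads in tamoxifen replicate 2, against 25 and 40 in the other tamoxifen libraries and 43, 26 and 9 in the untreated libraries. Its groups overlapped, and the antisense gene Nudt6 overlaps it.

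Of the other receptor genes, Fgfr4 had 418, 369 and 312 normalized counts in tamoxifen libraries, against 214, 224 and 213 in untreated libraries. Every tamoxifen library was above every untreated library, on 9 to 40 reads, with a log2 fold change of 0.74 ± 0.21 (SE, limma adjusted p 0.368). Fgfr3, at 0.29 (limma adjusted p 0.772), and the other 2 tested genes of that role, Fgfrl1 and Klb, had groups that overlapped.

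Heparan sulphate chains hold FGF on its receptor, and the list holds 7 of the genes of their synthesis. On deposited values all 3 tamoxifen libraries lay above all 3 untreated libraries in 4 of these 7, against 7.92% of all genes tested. Glce, the glucuronyl C5-epimerase gene, had 1712, 1528 and 1421 normalized counts in tamoxifen libraries, against 1080, 905 and 825 in untreated libraries (log2 fold change 0.73 ± 0.15 SE, limma adjusted p 0.207). Hs2st1, a sulphotransferase gene, had 1723, 2520 and 1723 in tamoxifen libraries and 1480, 1372 and 1226 in untreated libraries (0.53 ± 0.18 SE, limma adjusted p 0.486). Ndst1 (0.82) and Hs6st1 (0.39) were the other 2. Ndst1, which overlaps the ribosomal protein gene Rps14, had 584, 720 and 1577 in tamoxifen libraries and 526, 487 and 467 in untreated libraries. As CPM of recovered reads the groups of Glce, Hs2st1 and Ndst1 overlapped, and those of Hs6st1 did not. On that scale tamoxifen replicate 1 stood below untreated replicate 1 for Glce (32.7 and 36.8), Hs2st1 (50.9 and 66.4) and Ndst1 (18.7 and 19.2). The deposited values gave the 7 a median of 0.39, and 0 of 7 were called by limma (2 at an unadjusted p under 0.05, both higher, against 5.34% of all genes). Hs6st3, a heparan sulphate sulphotransferase gene outside the list that was named after its values were seen, lay in the other direction without overlap. It averaged 909 ± 223 in tamoxifen and 2057 ± 147 in untreated libraries (SD, n = 3 each), or -1.20 as a log2 fold change, with an adjusted p of 0.113 by limma.

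The genes of the signalling chain had values on both sides of 0, and limma called none of its adaptor, RAS, RAF, MEK and ERK genes, with 0 at an unadjusted p under 0.05. Of the adaptor genes, Ptpn11, which encodes the phosphatase SHP2, was at 0.60 (limma adjusted p 0.529) and Frs3 at 0.45 (limma adjusted p 0.569). Hras stood at 0.41 (limma adjusted p 0.551) and Rasa1, which encodes a RAS GTPase-activating protein, at -0.26 (limma adjusted p 0.618). The 8 genes of RAF, MEK and ERK kinases and their scaffold had a median of -0.092, with 7 lower. Map2k1, which encodes a MEK kinase, stood at -0.14 (limma adjusted p 0.749) and Ksr1, which encodes a scaffold, at 0.37 (limma adjusted p 0.704).

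The other feedback and target genes gave values on both sides of 0. Spry1, a further Sprouty gene, had 1360, 1592 and 1361 normalized counts in tamoxifen libraries and 1185, 1108 and 1221 in untreated libraries (0.29 ± 0.12 SE, limma adjusted p 0.529), without overlap on this scale, while Spred3 stood at -0.19. The 7 further dual-specificity phosphatase genes on the list had log2 fold changes above 0, with a median of 0.19, and 0 of 7 were under an unadjusted p of 0.05 (Dusp1 0.29, Dusp8 1.13 on 2 to 15 reads). The list leaves out other genes of the family, some of which are named here after their values were seen. Of these, Dusp9, which encodes another ERK phosphatase, averaged 15190 in tamoxifen and 10247 in untreated libraries (0.57, limma adjusted p 0.258), and Dusp27 stood at -0.56 (limma adjusted p 0.556). Dusp26 averaged 0 in tamoxifen and 174 in untreated libraries, on 1.5 reads on average (limma adjusted p 0.0936). It passed the filter on low values only through the untreated libraries. On deposited values Rps6ka2, an ERK-activated kinase gene, was lower in every tamoxifen library (-0.58 ± 0.15 SE, limma adjusted p 0.312), and Ets2 was higher in every one (0.57 ± 0.17 SE, limma adjusted p 0.417). As CPM of recovered reads the groups of Spry1 and Rps6ka2 overlapped, and those of Ets2 did not. Of the 8 early genes that ERK induces, Phlda1 stood at 0.38 (limma adjusted p 0.526) and Junb at 0.12, and the median was 0.059.

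**Figure D4:**
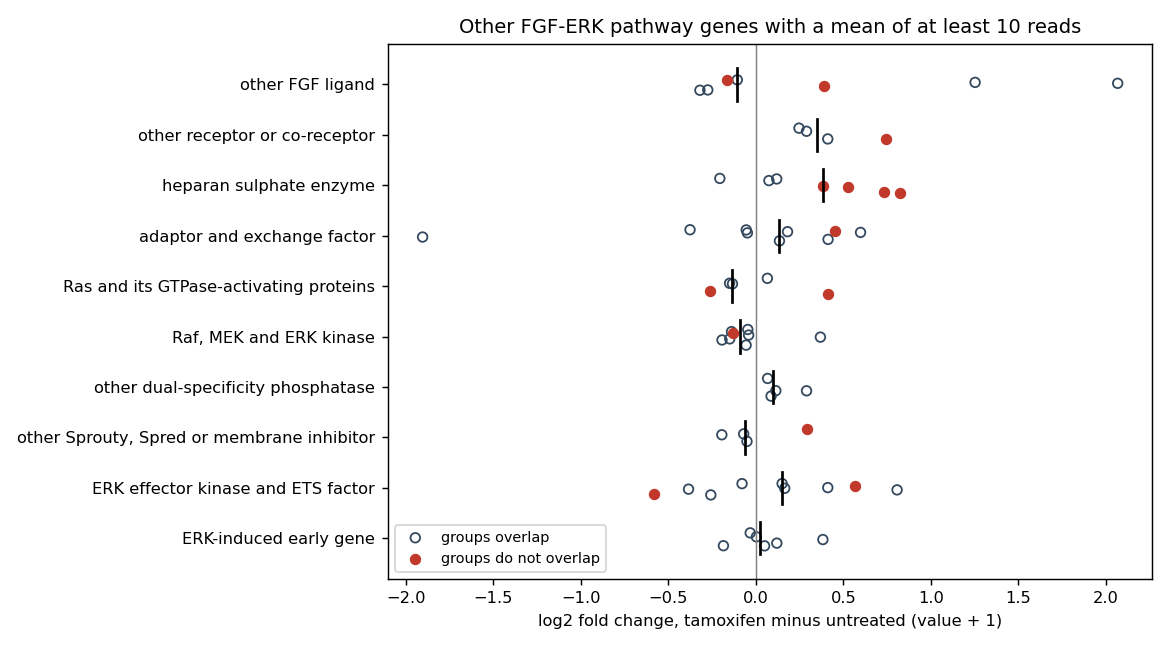
Log2 fold change, tamoxifen minus untreated, of the 63 other pathway genes with at least 10 reads on average, by role; filled points are genes whose groups do not overlap and black bars are role medians. On the deposited values shown, the 4 filled points of the heparan sulphate enzymes lie between 0.39 and 0.82, and the RAF, MEK and ERK kinases centre on -0.092.

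Of the markers of primitive endoderm, the fate that FGF signalling favours, 0 of 10 were called by limma. At an unadjusted limma p under 0.05 there were 8 (80%), all higher, against 5.34% of all genes. The summed level of the 10 was 30485 to 35242 in tamoxifen libraries and 14306 to 18182 in untreated libraries, and 9 of 10 had groups that did not overlap, all higher, against 7.92% of all genes. Lamb1 and Col4a1 stood at 0.95 (limma adjusted p 0.0861) and 1.27 (limma adjusted p 0.0936). Trophoblast markers summed to 9519 to 12143 in tamoxifen libraries and 5977 to 6687 in untreated libraries. Of the 6 tested, 3 had groups that did not overlap (50%), all higher, against 7.92% of all genes. Among the trophoblast markers the smallest p were those of Hand1 (limma adjusted p 0.0849) and Krt18 (0.89, limma adjusted p 0.305). Hand1 had 6, 8 and 10 reads in tamoxifen libraries, against 0, 1 and 0 in untreated libraries, and passed the filter on low values only through the tamoxifen libraries. Formative and primed epiblast markers summed to 9979 to 11412 in tamoxifen libraries and 8924 to 11179 in untreated libraries. Of the 7 tested, 4 were higher and 3 lower (Sox3 -0.98, Lef1 -1.78 and Dnmt3b -0.033). Groups did not overlap for 2 higher and 1 lower of these 7 (42.9%, against 15.3% of all genes). The smallest p were those of Wnt8a and Cldn6 (0.62, limma adjusted p 0.361). Wnt8a had 2.17 reads on average and passed the filter on low values only through the tamoxifen libraries. Fibroblast markers summed to 6093 to 8704 in tamoxifen libraries and 3996 to 7592 in untreated libraries, with Postn on 0.833 reads and Col3a1 on 1.5 reads on average. Postn was the 1 fibroblast marker of 7 whose groups did not overlap (14.3%, against 15.3% of all genes). The marker sums mostly follow their most abundant genes. In tamoxifen libraries Lama1 and Lamb1 averaged 11464 and 11461 among the endoderm markers, and Vim 5874 among the fibroblast markers. The part of these cell states in the values of the FGF genes was not tested, and in bulk RNA more cells of a type and more RNA per cell cannot be told apart. On deposited values 5 of the 10 stem cell markers had groups that did not overlap (50%, against 15.3% of all genes), 3 of them higher (Tbx3 0.89, Tfcp2l1 0.70 and Nanog 0.57) and 2 lower (Dppa4 -0.54 and Zfp42 -0.26). As CPM of recovered reads the groups of Nanog, Dppa4 and Zfp42 overlapped, and those of Tbx3 and Tfcp2l1 did not. None of the 10 was called by limma, with 4 at an unadjusted p under 0.05 (40%, against 9.34% of all genes). Tfcp2l1 and Dppa4 had the smallest p (limma adjusted p 0.195 for each).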

How the data were processed

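RNA was sequenced from 3 tamoxifen and 3 untreated libraries. The authors deposited 1 table of signal values, normalized counts for 22933 genes, and the submitters' processing notes name TopHat2, bedtools, DESeq2 and the build mm9. Counting rule, strand setting and annotation are not given in the sources used here. Every deposited value above 0 has the form c·k·(m + 0.1)/(k + 0.1) with whole numbers k and m (c = 9.73, largest relative misfit 5.39e-15). The number k was taken as the reads of the gene. A single k solved 98.8% of 100305 values. Among the others, 1069 were decided from the same gene in further libraries and 106 by choosing k closest to m. The factor between reads and value thus differs by gene and library. The floor of 3 counts for a count of 0 covers counting error only.

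Log2(value + 1) was fitted with limma 3.58.1 (R 4.3.3, expression trend) for 17427 genes with a mean of at least 10, with Benjamini-Hochberg adjustment over all of them and calls at an adjusted p under 0.05. The design had foreseen normalized values, and this test was kept. The fit was tested on simulated data. Symbols and coordinates came from GENCODE vM21 (GRCm38), which gave 20273 genes a symbol, and promoters from RefSeq (GRCm38.p6). The remaining steps used pandas 2.3.3, matplotlib 3.10.9 and numpy 2.4.6 under Python 3.11.15. Replicates may be technical, so p-values measure only the spread between these libraries. The reported fit did not pair the groups by replicate number, and whether same-numbered cultures were paired is not known here. The members and lists were chosen with earlier results of these data known. The genes named are all 10 members, Ezh2, every called pathway gene, up to 2 of smallest p per role and marker list, and the 5 genes nearest to the ERK-induced profile. Nanog, Tbx3, Zfp42, Lama1, Sox3, Lef1, Dnmt3b and Vim were named after their values were seen. So were Fgf2, Fgf5, Fgfrl1, Klb, Ndst1, Hs6st1, Hs6st3, Dusp9, Dusp26, Dusp27 and the genes around Fgfr2. No library was left out of the reported fit. The alternatives were 2 other pseudocounts, 2 other filters, 3 other scalings, no trend, a replicate block and leaving out each of 6 libraries.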

Additional observations from a re-analysis of the deposited data

How the results depend on the processing

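None of the 10 members was called in any of 15 alternative fits, with 0 to 3 at an unadjusted p under 0.05, and 141 of their 150 log2 fold changes kept the sign. On recovered reads with median-of-ratios scaling the sign turned for Fgfr2 (-0.11), Dusp6 (-0.15) and Etv4 (-0.097), and the members' median was -0.13. On reads scaled to the library total (CPM) it turned for Spry2 (0.047) and Spred1 (0.022). With 1 library left out, Dusp6 ranged from -0.037 to 0.087, Spry2 from -0.17 to 0.15 and Etv4 from -0.019 to 0.14.

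Over all genes tested, 34 were called, 22 higher and 12 lower, and 26 to 35 with the lower pseudocount or with rescaled deposited values. There were 52 with a pseudocount of 10 and also 52 without a filter, 62 without the trend, 15 (13 higher, 2 lower) over genes with at least 10 reads, 8 (all higher) on CPM of reads and 5 (all higher) on reads with median-of-ratios scaling. Leaving out any 1 of the 6 libraries gave 66 to 103. The replicate block gave 0 (1393 at an unadjusted p under 0.05). Deviations from the group mean had correlations of -0.00091, -0.021 and -0.045 between same-numbered libraries. These show no shared deviation but cannot tell whether the cultures were paired. The 1 called pathway gene became 0 over genes with at least 10 reads, on either scaling of reads and with the replicate block, and was 1 with any library left out. Fgf21 has too few reads to enter the first 3 of these. For the other differences the cause was not tested. Dusp4 had the fewest reads of the members, 19 in untreated replicate 3, so counting error bears most on it.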
